A study of Danio rerio with 4 samples.

Results

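The genes described here are the zebrafish matrix metalloproteinase genes *mmp2*, *mmp9*, *mmp13a*, *mmp13b*, *mmp14a*, *mmp14b* and *mmp15a* and the genes for their tissue inhibitors, *timp2a* and *timp2b*. They were found by pairing the RefSeq accessions of the count table with gene symbols. Of the 9 genes, 7 had a row among the 15171 rows of the table, 5 of them metalloproteinase genes and 2 inhibitor genes, and each of the 7 had a single row. *mmp13b* and *mmp15a* matched no row and were not analysed here. Counts come from whole larvae of *Danio rerio* at 5 days post fertilization, sequenced as ribosome-depleted total RNA. One group held 2 libraries of larvae labelled uhrf1-hi272-/-, which lack normal Uhrf1, a protein that binds hemimethylated DNA and brings the methyltransferase Dnmt1 to it. The other held 2 libraries of phenotypically normal siblings, labelled as a mix of +/+ and +/-. Larvae were sorted by phenotype, each library was a pool of 10 larvae, and the labels name 2 clutches but not which library came from which, so the p-values reflect how far these pools spread.

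Matrix metalloproteinases are zinc-dependent endopeptidases that cut collagens, laminins, fibronectin and other proteins of the extracellular matrix, as well as cytokines and receptors at the cell surface. They are made as inactive precursors and are held in check by TIMPs, small secreted proteins that occupy the active site. In mammals TIMP2 also has an activating part: membrane-bound MMP14 holds TIMP2, TIMP2 holds the MMP2 precursor, and a second MMP14 molecule cuts it. Transcription of MMP9 and MMP13 in mammals is induced by inflammatory cytokines through AP-1 and NF-kB, whereas MMP2, MMP14 and TIMP2 are made more steadily by connective tissue cells. In zebrafish larvae *mmp9* and *mmp13a* are known from leukocytes and from wounded or regenerating fins.

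Total gene counts were 2996676 to 4981004 in the siblings and 3299449 to 9100665 in the mutants. The targeted gene *uhrf1* stood at 21.4 and 46.9 CPM (read counts scaled to a common library size, with TMM factors) in siblings 1 and 2 and at 33.4 and 24.2 in mutants 1 and 2, so its count does not check the genotype labels. The median absolute log2 difference between the 2 libraries of a group was 0.302 for siblings and 0.266 for mutants over the genes tested. CPM is not divided by transcript length, so levels, and sums or shares over several genes, are compared below between libraries and not between genes.

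*mmp9*, *mmp13a* and *timp2b* were higher in mutants, between 5.49-fold and 9.30-fold, and no member was lower. *mmp2*, *mmp14a* and *mmp14b* had smaller positive values that did not pass the test, and *timp2a* had a negative value that did not pass. All 7 genes with a row passed the filter on low counts, *mmp13a* only through its mutant counts, so its place among the genes tested already rests on its being higher there. In edgeR's quasi-likelihood test with Benjamini-Hochberg adjustment over all 12786 genes tested and a threshold of 0.05, 3 of the 7 were higher and 0 lower, where 4.58% of all genes were higher, 3.79% lower and 8.37% changed in either direction. DESeq2 and limma-voom also gave 3 higher and 0 lower. At an unadjusted p under 0.05, 6 were higher and 0 lower, but the share of all genes at that cut was not computed. Among the 6 are *mmp2*, *mmp14a* and *mmp14b*, with edgeR adjusted p of 0.142, 0.176 and 0.190. The mutant libraries both exceeded the sibling libraries for 6 of the 7, an order seen in 28.0% of all genes tested, and both lay under them for *timp2a*, seen in 26.9%. The median log2 fold change was 0.69 for the 7 genes and 0.0036 for all genes.

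**Figure D1:**
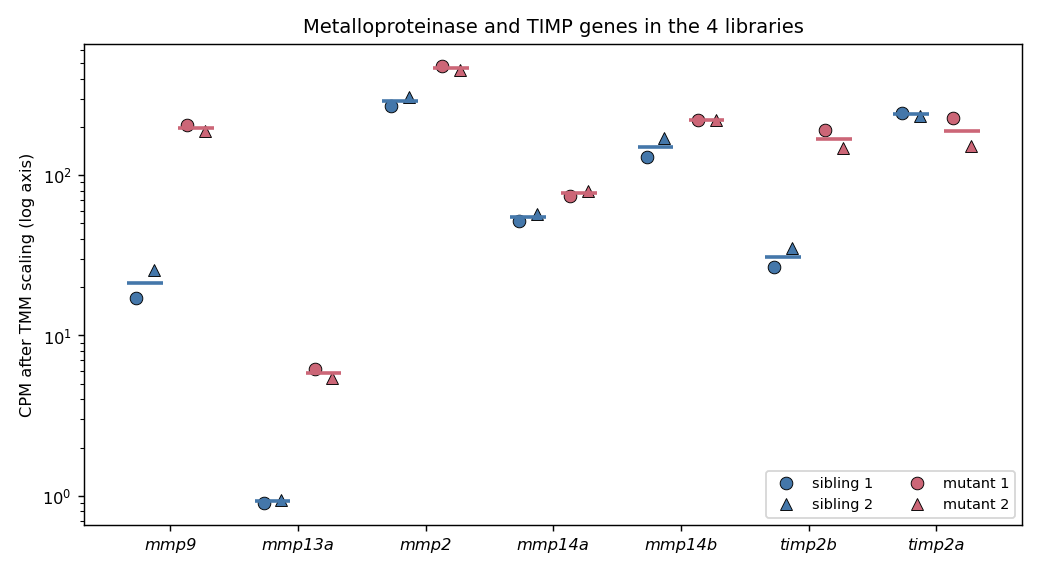
CPM after TMM scaling (log axis) of the 7 measured genes in each of the 4 libraries; blue marks siblings and red mutants, circles replicate 1 and triangles replicate 2, and horizontal lines are group means. The mutants of *mmp9*, *mmp13a* and *timp2b* lie at least 4.19 times above the higher sibling, and only for *timp2a* do the mutants lie below the siblings; heights are not comparable between genes of different length.

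*mmp9* encodes gelatinase B, which cuts denatured collagen and type IV collagen. Its level was 17.1 and 25.5 CPM in the sibling pools (1 and 2) and 204 and 189 in the mutant pools (1 and 2). The lower mutant was 7.41 times the higher sibling, and the mutants differed from each other by a factor of 1.08. The log2 fold change of 3.22 (SE 0.26) passed with an edgeR adjusted p of 0.000105. It had rank 86 from the highest, with 0.665% of all genes tested above it. Whole larvae were sequenced, so a change in the number of cells that make a transcript and a change in transcript per cell cannot be told apart, for *mmp9* and for every gene below.

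*mmp13a* encodes collagenase 3, which cuts the triple helix of fibrillar collagens. It was the least counted member, with 4 and 3 counts in siblings 1 and 2 and 56 and 19 in mutants 1 and 2. In CPM these are 0.902 and 0.943 in the siblings and 6.16 and 5.46 in the mutants, so the groups lay apart by a factor of 5.79 at their nearest. The ratio of summed counts, scaled for depth, was 6.49 with an exact 95% interval of 3.0 to 16.7, which covers counting error only. The log2 fold change of 2.64 (SE 0.55) passed with an edgeR adjusted p of 0.0160, and 0.985% of genes lay above it. The call was lost without mutant 1, the deepest library, where the log2 fold change was 2.51 (edgeR adjusted p = 0.0718).

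Markers of leukocytes moved in both directions in the same libraries. Of 8 neutrophil markers, 6 were tested and 2 rose, *mpx*, which encodes myeloperoxidase, by 2.22 on the log2 scale (SE 0.24) and the granule proteoglycan gene *srgn* by 1.43 (SE 0.21). None of the 6 fell in edgeR, DESeq2 or limma-voom, or at an unadjusted p under 0.05. The median log2 fold change of the 6 was 0.49, with 5 above 0. *csf3r* was lower in both mutants (10.4 and 12.6 CPM in siblings against 8.26 and 7.48). Its log2 fold change of -0.53 (SE 0.33) did not pass (edgeR adjusted p = 0.384). *lyz* measured 16.7 and 9.75 CPM in sibling libraries against 15.7 and 20.7 in mutant ones, and *npsn* had no counts in any library. The summed level of the 8 was 111 and 103 CPM in sibling libraries against 254 and 256 in mutant ones. Most of these sums came from *srgn* (54.6 and 46.5 CPM against 143 and 130) and *mpx* (14.7 and 16.0 against 64.5 and 78.8). Of 11 macrophage and leukocyte markers with a row, 7 were tested, with 2 that rose, *irf8* (2.84, SE 0.24) and *mpeg1.2* (2.06, SE 0.23), and 2 that fell, *coro1a* (-1.62, SE 0.34) and *mpeg1.1* (-1.58, SE 0.31). Their summed level was 117 and 112 CPM in sibling libraries against 204 and 214 in mutant ones. Most of the mutant sums came from *mpeg1.2* (93.9 and 95.5 CPM) and *irf8* (68.35 and 66.4). In siblings these stood at 20.1 and 25.5 CPM (*mpeg1.2*) and 10.15 and 8.49 (*irf8*). The median log2 fold change of the 7 tested was -0.17, with 3 above 0. Leaving out sibling 1 or mutant 2 ended the call of *coro1a* (edgeR adjusted p = 0.0583 and 0.0815), and leaving out mutant 1 ended that of *mpeg1.1* (0.0711). The part of leukocyte number in the values of *mmp9* and *mmp13a* was not tested.

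*mmp2* encodes gelatinase A, the member that the MMP14 and TIMP2 complex activates. Its level was 270 and 306 CPM in the sibling pools (1 and 2) and 480 and 449 in the mutant pools (1 and 2). The groups did not overlap, with the lower mutant at 1.47 times the higher sibling. Its log2 fold change of 0.69 (SE 0.26) did not pass (edgeR adjusted p = 0.142), and 12.3% of genes lay above it.

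The membrane-type enzymes had values close to that of *mmp2*. *mmp14a* measured 52.1 and 57.2 CPM in sibling libraries against 74.3 and 79.4 in mutant ones, a log2 fold change of 0.49 (SE 0.20, edgeR adjusted p = 0.176). *mmp14b* measured 130 and 171 CPM in sibling libraries against 222 and 221 in mutant ones, a log2 fold change of 0.55 (SE 0.24, edgeR adjusted p = 0.190). In both genes the mutants lay above the siblings, by 1.30 and 1.29 times at their nearest. The siblings differed from each other more than the mutants did, most for *mmp14b*, where sibling 1 was 0.759 times sibling 2.

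The TIMP2 genes, a pair of copies left by the teleost genome duplication, differed in their values: *timp2b* rose 5.49-fold, and the fold of 0.789 for *timp2a* did not pass. The level of *timp2b* was 26.6 and 35.2 CPM in the sibling pools (1 and 2) and 190 and 148 in the mutant pools (1 and 2). The mutants lay far above the siblings, and 1.14% of all genes had a higher log2 fold change than its 2.46 (SE 0.25, edgeR adjusted p = 0.000332). The level of *timp2a* was 246 and 233 CPM in the sibling pools (1 and 2) and 225 and 152 in the mutant pools (1 and 2). Mutant 1 was close to the siblings and mutant 2 lower, and the log2 fold change of -0.34 (SE 0.26) did not pass (edgeR adjusted p = 0.468). It was -0.09 without mutant 2 and -0.67 without mutant 1. The summed level of the pair was 272 and 269 CPM in sibling libraries against 415 and 299 in mutant ones.

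**Figure D2:**
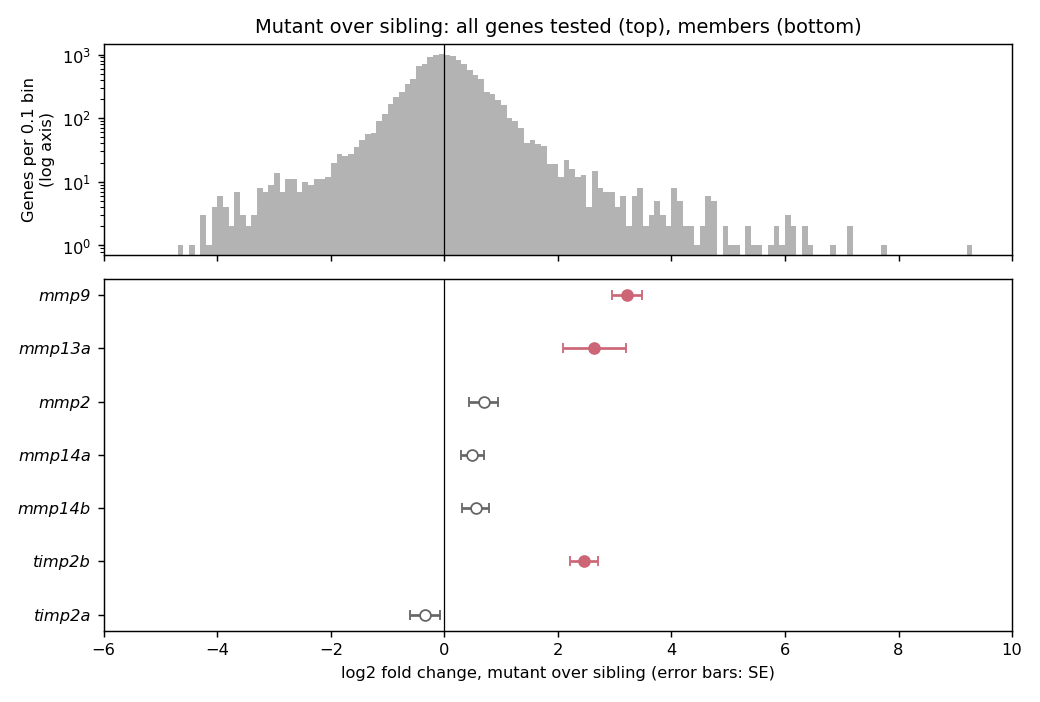
The upper panel is a histogram of log2 fold changes, mutant over sibling, for the 12786 genes tested (log count axis), and the lower panel gives the 7 genes with their standard errors; filled red points passed an edgeR adjusted p of 0.05 and open points did not. *mmp9* (3.22), *mmp13a* (2.64) and *timp2b* (2.46) lie in the right tail, *mmp2*, *mmp14a* and *mmp14b* between 0.49 and 0.69, and *timp2a* at -0.34.

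The make-up of each pair of copies was followed within a library, where it does not depend on scaling. *timp2b* gave 9.78% of the pair's counts in sibling 1 (exact 95% binomial interval 8.16 to 11.6) and 13.1% in sibling 2 (10.9 to 15.6). It gave 45.7% in mutant 1 (44.1 to 47.3) and 49.3% in mutant 2 (46.2 to 52.4). The mean log2 ratio of *timp2b* to *timp2a* counts went from -2.97 in siblings to -0.14 in mutants, a difference of 2.82, and without any 1 library the difference was between 2.59 and 3.06. *mmp14b* gave 71.4% and 75.0% of its pair's counts in siblings 1 and 2 and 74.9% and 73.6% in mutants 1 and 2. The groups overlapped there, and the mean log2 ratio differed by 0.07. An exact two-sided permutation test over 2 against 2 libraries cannot give a p under 0.333, and it gave 0.333 for *timp2b* over *timp2a* and 1 for *mmp14b* over *mmp14a* (0.667 and 1 when adjusted over the 2 pairs). Reads shared by 2 copies could be split or dropped in counting, and how similar the copies are was not measured. Counts were not divided by transcript length, so a share can be compared between libraries but does not give the relative level of the copies.

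**Figure D3:**
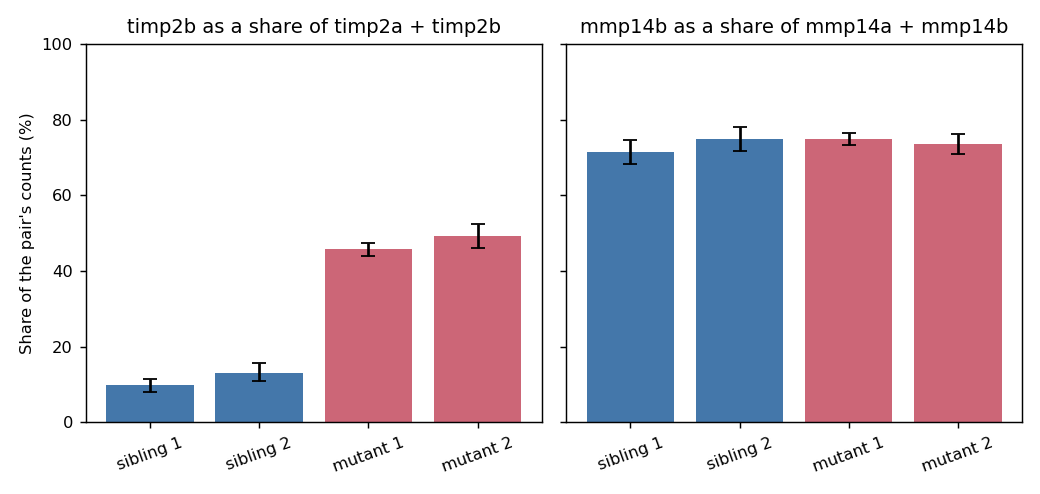
Share of the pair's counts (percent, from 0 to 100) given by *timp2b* (left) and *mmp14b* (right) in each library, with exact 95% binomial intervals that cover counting error only. The *timp2b* share is 9.78% and 13.1% in siblings and 45.7% and 49.3% in mutants, while the *mmp14b* share lies between 71.4% and 75.0% in all 4 libraries. Shares are not corrected for transcript length.

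Each inhibitor copy was also set against *mmp14b* and *mmp2*, whose mammalian counterparts form the activation complex with TIMP2. These ratios were chosen after the values above were seen and carry no test. The log2 ratio of *timp2b* to *mmp14b* counts was -2.29 and -2.28 in siblings 1 and 2 and -0.22 and -0.58 in mutants 1 and 2. That of *timp2b* to *mmp2* was -3.35 and -3.12 in the siblings and -1.34 and -1.61 in the mutants. For *timp2a* over *mmp14b* it was 0.92 and 0.45 in the siblings and 0.02 and -0.54 in the mutants, and for *timp2a* over *mmp2* it was -0.14 and -0.39 against -1.09 and -1.57. Both mutants lay above both siblings in each ratio with *timp2b* and below both in each ratio with *timp2a*. This order restates the levels above, where *timp2a*, *mmp2* and *mmp14b* did not pass. Its share over all pairs of genes was not computed.

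The genes whose profiles lay nearest to the called members were found by the root mean square distance of log2 CPM over the 4 libraries. An average of 2 counts was added before the log, and each gene was centred on its sibling mean. Nearest to *mmp9* were *glipr2l* (0.0706), the complement protease gene *c1s.1* (0.156) and the stress transcription factor gene *atf3* (0.158). *glipr2l* went from 6.76 and 11.6 CPM (siblings) to 87.9 and 79.4 (mutants). Nearest to *mmp13a* were the pro-apoptotic gene *bcl2l11* (0.0844), a gene known in the table only as NM_194399 (0.101) and the receptor gene *tnfrsf9a* (0.104). Their log2 fold changes were 2.46, 2.15 and 2.16, against 2.64 for *mmp13a*. The added counts shrink the change of a gene with counts as low as those of *mmp13a*, so these small distances do not mean equal changes. Nearest to *timp2b* were the finTRIM gene *ftr72* (0.0904), *ube2t* (0.119), which encodes a ubiquitin-conjugating enzyme, and the accession NM_001098263 (0.120). *ftr72* had 7 and 6 counts in siblings 1 and 2 and *ube2t* had 8 and 9, so the added counts shrink their changes too. Both passed the filter on low counts only through their mutant counts. With 4 libraries in 2 groups, such a profile holds little beyond the size of the change and the order within each group.

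Genes beside the members in the genome were mostly not called. Up to 2 protein-coding genes on each side, and genes overlapping a member, were read from the RefSeq annotation of assembly GRCz12tu. Of 18 such genes with a row, 17 were tested, and 2 were higher and 0 lower, where 4.58% and 3.79% of all genes were. No such gene of *mmp14a* had a row, and the only one of *mmp14b* with a row was not tested, so these counts do not cover *mmp14a* and *mmp14b*. None of the 17 was lower in edgeR, although *irx5a* beside *mmp2* (-0.77, SE 0.31) and *cpne5a* beside *mmp9* (-0.59, SE 0.26) had unadjusted p values of 0.0301 and 0.0481. The annotated span of *mmp9* overlaps *dclre1b*, *adora1b* and *zgc:110353*, whose log2 fold changes were -0.15, -0.40 and -0.17. *mmp30*, the second gene after *mmp13a* and itself a metalloproteinase gene, was at 0.07 (SE 0.27, edgeR adjusted p = 0.911).

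The TIMP2 copies have copies of the same gene as neighbours, *cyth1a* near *timp2b* (0.05, SE 0.22) and *cyth1b* overlapping *timp2a* (-0.06, SE 0.22). Beside *timp2b*, *usp36* was at 0.12 (SE 0.25). *lgals3bp.3*, on the other side of *timp2b*, rose from 2.26 and 4.72 CPM to 12.1 and 42.6 (a log2 difference of 2.96, SE 0.63, edgeR adjusted p = 0.0176). It had 10 and 15 counts in siblings 1 and 2 and passed the filter on low counts only through its mutant counts. Its place among the genes tested thus already rests on being higher there. The next copy, *lgals3bp.2*, was at -0.09 (SE 0.48). Near *timp2a*, the cytokine feedback inhibitor gene *socs3b* rose from 51.9 and 51.6 CPM to 277 and 144 (a log2 difference of 2.03, SE 0.31, edgeR adjusted p = 0.00288). Without the strand setting of the counting, reads of overlapping genes cannot be told apart.

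**Figure D4:**
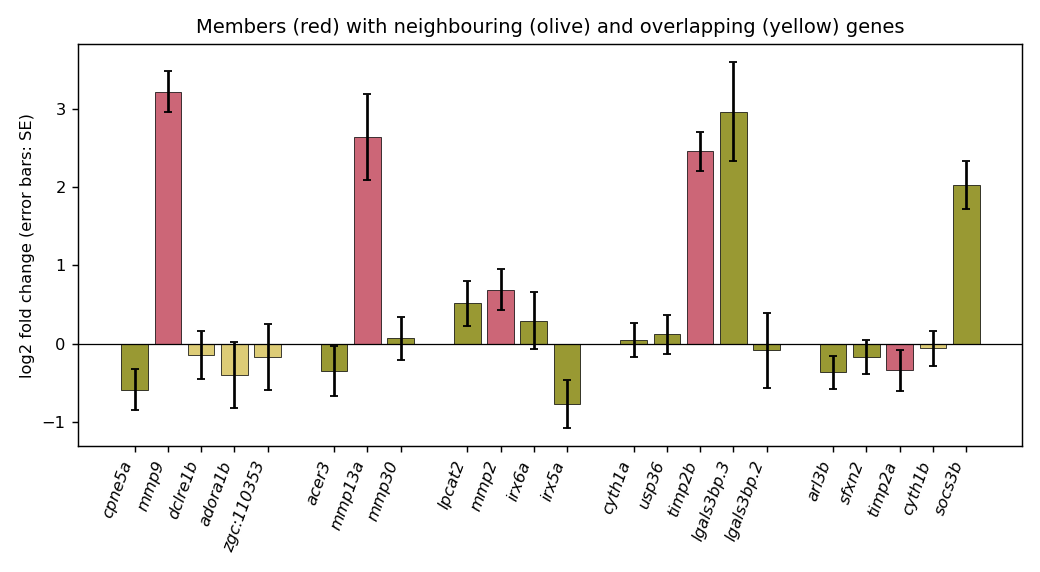
Log2 fold change with standard error of 5 members (red bars), of tested genes beside them (olive) and of tested genes that overlap them (yellow), in the order of the annotation, with overlapping genes drawn after the member. The bars of *lgals3bp.3* (2.96) and *socs3b* (2.03) are those of the called neighbours, and the genes that overlap *mmp9* lie between -0.40 and -0.15.

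Among other metalloproteinase genes, 2 of 18 symbols had a row, and neither changed in edgeR, DESeq2 or limma-voom or had an unadjusted p under 0.05. *mmp23bb* measured 13.1 and 14.2 CPM in sibling libraries against 7.70 and 14.4 in mutant ones, and *mmp30* measured 80.7 and 45.3 against 71.5 and 61.0 CPM. The other 16 symbols, and the 7 looked up for further TIMP genes and the membrane inhibitor *reck*, were not analysed here. Of the related ADAM and ADAMTS protease genes, 10 were tested and 1 rose, *adam8a* (log2 fold change 1.35, SE 0.28). The median of the 10 was 0.40. The *adam8a* call was lost without mutant 2 (edgeR adjusted p = 0.0762).

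The plasminogen system activates several metalloproteinase precursors. Of 16 genes of precursor activation and its control, 3 rose, with a list median of 0.27. *plaua*, a gene for urokinase-type plasminogen activator, went from 0.902 and 2.52 CPM to 9.25 and 12.1 (a log2 difference of 2.69, SE 0.52, edgeR adjusted p = 0.0111). With 4 and 8 counts in siblings 1 and 2, *plaua* passed the filter on low counts only through its mutant counts. *htra1b*, a secreted serine protease gene, rose by 1.09 (SE 0.21), a call lost without mutant 1 (edgeR adjusted p = 0.0612). The liver gene for plasminogen itself, *plg*, stood at 122 and 129 CPM in sibling libraries against 85.9 and 166 in mutant ones. The furin genes, whose products cut the precursor of MMP14, had values of 0.47 (*furina*, SE 0.21) and 0.58 (*furinb*, SE 0.28) that did not pass.

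Genes for matrix proteins, the substrates of these enzymes, had mostly small positive values. Of 34 tested, 3 rose, where 4.58% of all genes did, and 30 had a log2 fold change above 0. The median was 0.56, against 0.0036 for all genes, and the share of all genes above 0 was not computed. Those that rose were the laminin chain gene *lama1* (1.71, SE 0.27) and the fibronectin genes *fn1b* (1.12, SE 0.29) and *fn1a* (1.1, SE 0.24). At an unadjusted p under 0.05, 11 of the 34 were higher and 3 lower, but the share of all genes at that cut was not computed. The 3 lower were *bgna* (-1.04, SE 0.42), *vtna* (-0.61, SE 0.23) and *lamb1b* (-0.56, SE 0.22), and none passed after adjustment. The fibrillar collagen gene *col1a2* measured 508 and 844 CPM in sibling libraries against 882 and 1548 in mutant ones, and did not pass (edgeR adjusted p = 0.238). *col2a1a* was likewise higher in replicate 2 of both groups (551.5 and 1106 CPM against 873 and 1674). Genes that vary together in this way are not separate signs of a change. The count of higher genes was 12 without sibling 2 and 1 without mutant 2. The call of *fn1a* was lost without mutant 1 (0.0506) or mutant 2 (0.121), and that of *fn1b* without any 1 of the 4 libraries (edgeR adjusted p between 0.0603 and 0.222).

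Genes of AP-1, ETS and NF-kB factors, listed with NF-kB inhibitor genes, had the highest median of the lists beside the members, at 1.83. Of 15 tested, 10 rose and none fell in edgeR, DESeq2 or limma-voom or at an unadjusted p under 0.05. Those with the lowest p were *atf3* (3.34, SE 0.23), the AP-1 subunit gene *junbb* (2.80, SE 0.28), the NF-kB subunit gene *nfkb2* (2.57, SE 0.26) and the AP-1 subunit gene *fosl2* (1.89, SE 0.23). *atf3* went from 21.2 and 23.9 CPM to 238 and 217 CPM. The NF-kB inhibitor genes *nfkbiaa* (1.83, SE 0.32) and *nfkbiab* (1.84, SE 0.25) were among the 10. The NF-kB subunit genes *rela* and *rel* did not pass (edgeR adjusted p = 0.113 and 0.0782). *fosab* measured 30.7 and 7.55 CPM in sibling libraries against 38.2 and 24.2 in mutant ones. Of 7 cytokine genes tested, 4 rose, namely *il34* (3.72, SE 0.31), *tgfb1a* (1.5, SE 0.21), *tnfb* (2.43, SE 0.46) and *il1b* (2.49, SE 0.48), with a median of 1.5. Without mutant 1 the calls of *il1b* (edgeR adjusted p = 0.0867) and *tnfb* (0.0560) were lost. Some called genes of these lists passed the filter on low counts only through their mutant counts. Among them were *il1b* (8 and 7 counts in siblings 1 and 2) and *tnfb* (8 and 11), so their place among the genes tested already rests on being higher there. These lists were chosen with earlier results of these data known.

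Tissues that make these proteins were followed by their markers. Of 13 keratinocyte markers tested, *cldne* rose (1.15, SE 0.25) and *krt92* (-1.88, SE 0.36), *krt97* (-1.64, SE 0.39) and *cyt1l* (-1.60, SE 0.40) fell. Their summed level was 25550 and 17690 CPM in sibling libraries against 17380 and 11730 in mutant ones. Most of each sum came from *krt4* (13020 and 10020 CPM against 9528 and 5961), which did not pass (edgeR adjusted p = 0.562). The median log2 fold change of the 13 was -0.27, with 5 above 0. Without mutant 2 the calls of *cldne*, *krt97* and *cyt1l* were lost (edgeR adjusted p = 0.139, 0.275 and 0.338), and that of *cyt1l* also without mutant 1 (0.0535). Of 10 mesenchyme markers, the pericyte and fibroblast receptor gene *pdgfrb* rose (1.0, SE 0.20), a call lost without mutant 1 (0.0505) or mutant 2 (0.0530). The summed level of the mesenchyme markers was 470 and 551 CPM in sibling libraries against 612 and 769 in mutant ones. These sums include *and2* (60.9 and 83.0 CPM against 97.0 and 236), which did not pass (edgeR adjusted p = 0.0776). *pdgfra* was lower in both mutants (166 and 162 CPM against 154 and 130) and did not pass (edgeR adjusted p = 0.619). The median log2 fold change of the 10 was 0.33, with 7 above 0.

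Of 10 cartilage and bone markers tested, *matn3b* rose (1.40, SE 0.35) and *mia* (-1.15, SE 0.25) and *col10a1a* (-1.46, SE 0.33) fell. Their summed level was 654 and 1059 CPM in sibling libraries against 566 and 680 in mutant ones. The sums of the 2 groups overlapped, with mutant 2 above sibling 1. *col10a1a* alone stood at 321 and 538 CPM in siblings against 125 and 188 in mutants. The median log2 fold change of the 10 was 0.12, with 7 above 0. *bglap* had no counts in sibling 2 and mutant 2. The *matn3b* call was lost without sibling 2 (edgeR adjusted p = 0.0842), mutant 1 (0.0867) or mutant 2 (0.118), that of *mia* without mutant 2 (0.129) and that of *col10a1a* without mutant 1 (0.142). Of 5 osteoclast markers, *ctsk*, a collagen-degrading cathepsin gene, rose from 51.4 and 35.5 CPM to 116 and 117 (1.41, SE 0.23, edgeR adjusted p = 0.00458). The other osteoclast markers did not pass, at 0.37 (*acp5a*, SE 0.54), -0.24 (*acp5b*, SE 0.41), 0.57 (*tcirg1b*, SE 0.21) and 2.39 (*ocstamp*, SE 0.86). The summed level was 104 and 86.5 CPM in sibling libraries against 183 and 198 in mutant ones, and most of the mutant sums came from *ctsk*. None of 9 endothelial markers changed in edgeR, DESeq2 or limma-voom or had an unadjusted p under 0.05. The lowest p among them belonged to *pecam1a*, with 41.5 and 19.5 CPM in sibling libraries against 25.4 and 15.2 in mutant ones, and *fli1*, with 18.7 and 14.5 against 21.0 and 20.7 CPM. Their summed level was 183 and 188 CPM in sibling libraries against 193 and 177 in mutant ones. The part of these tissues in the values of the metalloproteinase and TIMP genes was not tested.

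**Figure D5:**
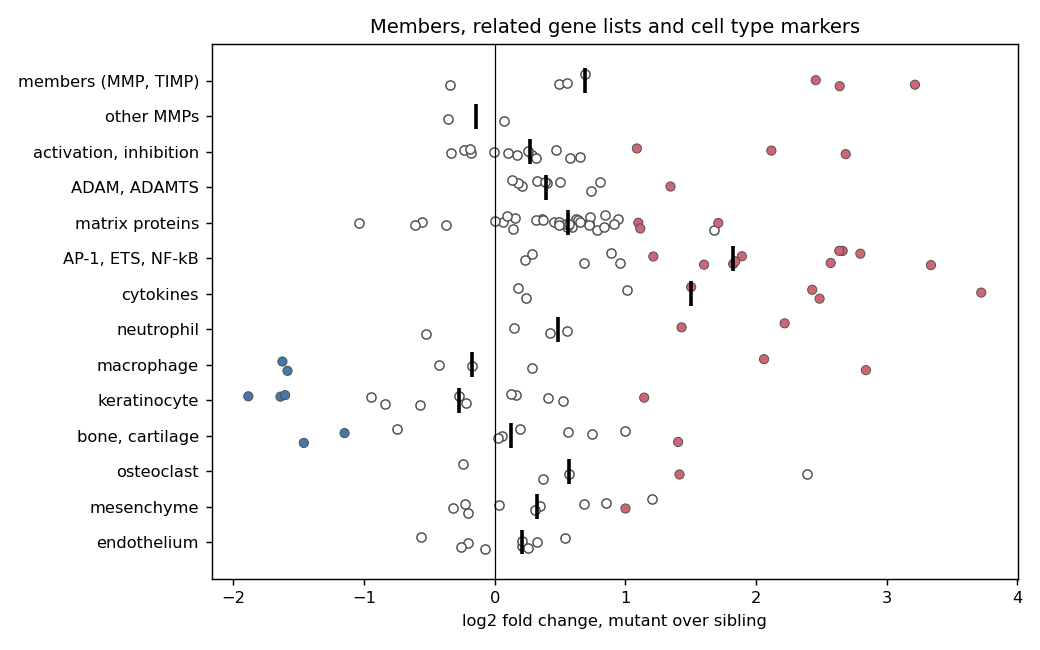
Log2 fold change, mutant over sibling, of each tested gene in the members, related lists and cell type markers; filled points passed an edgeR adjusted p of 0.05 (red higher, blue lower), open points did not, and black bars are medians. Of the members 3 of 7 are filled. The AP-1, ETS and NF-kB list, which includes NF-kB inhibitor genes, has 10 of 15 filled with a median of 1.83.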

How the data were processed

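The values used are raw counts per RefSeq accession, as deposited. The tools named, per the submitters' processing notes, are Bowtie2 2.1.0, HTSeq and DESeq2 and the build is GRCz10, with no role or order stated. Not given in the sources used here are the annotation, filters, strand setting and treatment of multiply mapped reads. Accessions were matched to symbols through a RefSeq table of assembly GRCz12tu (14472 of 15171 rows), and the row with most counts served a symbol. Of 253 list symbols, 155 had a row.

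The fit across all genes was made in R 4.3.3 with edgeR 4.0.16 (filterByExpr, TMM, glmQLFit and glmQLFTest, group only). The SE of a log2 fold change is its size over the square root of F. The biological coefficient of variation was 20.0%. Replicates differed beyond sampling noise (chi-square per degree of freedom 17.3 for siblings, 15.1 for mutants). The test was also run on simulated counts drawn with the means, dispersions and library sizes of these data. The simulation held no replicate or clutch effect, so it cannot show how such an effect bears on the calls.

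The members and lists were chosen with earlier results of these data known. Genes named are all members, up to 4 called genes with the lowest p of each list (or 2 where none passed), the 3 nearest profiles of each called member, and *uhrf1*, except 1 called gene that is not reported here. Some uncalled genes, the called *nfkbiaa* and *nfkbiab* and the neighbours were added after values were seen. The deposited counts of repeats were not used. Alternatives were DESeq2 1.42.0, limma-voom (limma 3.58.1), other scalings and filters, a replicate block and leaving out each library.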

Additional observations from a re-analysis of the deposited data

How the results depend on the processing

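*mmp9* and *timp2b* were called higher under each of 11 alternatives, with log2 fold changes of 2.94 to 3.52 and 2.25 to 2.67. *mmp13a* was called in 9 of the 10 that tested it (2.51 to 2.73). It was lost without mutant 1, and the filter of at least 50 counts in 2 libraries left it untested. *mmp14a* (0.42 to 0.56) and *timp2a* (-0.67 to -0.09) were called in none. The difference in the log2 ratio of *mmp14b* to *mmp14a* ran from -0.056 without sibling 1 to 0.21 without sibling 2. Over all genes, leaving out 1 library gave 315 to 796 higher and 234 to 729 lower, against 585 and 485 in the fit reported, both lowest without mutant 2.

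The labels do not say that a replicate number marks a shared clutch, and deviations of same-numbered libraries from their group means correlated at 0.242 over genes. With a replicate block, 1366 genes were higher and 1165 lower, and 5 members were higher: *mmp2* (0.69, edgeR adjusted p = 0.0243) and *mmp14b* (0.57, 0.0450) joined the 3. Matrix genes then had 15 higher and 3 lower, against 3 and 0. Other list counts that moved by over 1.5 times under the block were ADAM genes (2 higher, against 1), keratinocyte markers (5 lower, against 3), bone and cartilage (2 higher, against 1), osteoclast (2 higher, against 1) and mesenchyme markers (3 higher, against 1). Mesenchyme markers had 2 higher with DESeq2, library totals alone, no count filter, without sibling 1 or without mutant 1, and 3 without sibling 2, as osteoclast markers had 2 without sibling 2. With at least 50 counts in 2 libraries, 2 cytokine genes were higher. Summing the rows of a symbol was not run, since each member has 1 row. The comparison of *mmp13a* with *mmp13b* was not run. Depth limits *mmp13a* most, with 7 counts in the siblings together.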
